A study of Mus musculus with 19 samples.

Results

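Thymocytes of AND and F5 T cell receptor (TCR) transgenic mice were compared, with 2 mice of each genotype measured by CITE-seq, which counts RNA and antibody tags in the same single cells. The mice were chosen by their labelled genotype and the cells by at most 15% mitochondrial UMIs (unique molecular identifiers) and at least 200 genes. These limits kept 14168 cells of the 79569 kept over the 17 mice of the series, with 2674 and 4320 cells in AND replicates 1 and 2 and 2646 and 4528 cells in F5 replicates 1 and 2. Replicate 1 of each genotype belonged to the experiment ZRS06 and replicate 2 to ZRS07, so each experiment held a mouse of each genotype.

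All 4 thymi came from mice 4 to 8 weeks old and were unsorted. All 4 mice lacked Rag1 (Rag1-/-), whose product joins the segments of antigen receptor genes, so the receptor came from the transgene. The AND line, B10.Cg-Tg(TcrAND)53Hed/J, and the F5 line, made on C57BL/6 mice, had each been crossed to Rag1-/- mice. The AND line is congenic on another strain (B10), the F5 transgenes are driven by CD2 sequences, and each line descends from a transgene insertion of its own. Receptor, insertion, promoter and strain therefore cannot be told apart in what follows.

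Thymocytes pass from a double-positive (DP) stage, with both CD4 and CD8 on the surface, to single-positive (SP) CD4 or CD8 cells. A receptor that sees MHC class II, as AND does, leads to CD4 helper cells, and a receptor that sees MHC class I, as F5 does, leads to CD8 cytotoxic cells. The transcription factor THPOK, the product of Zbtb7b, is needed for the CD4 fate and RUNX3 for the CD8 fate, and maturing SP cells take up Klf2, S1pr1 and Ccr7, which serve exit from the thymus and homing.

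The variable (V) segments of the receptor genes told the genotypes apart. The β chain of the AND receptor uses Trbv26 and that of F5 uses Trbv16. Their V exons, and that of Trav6-1, the V segment of the α locus with the highest level in F5, are printed because their RNA separated the AND from the F5 libraries. The exons lie on the plus strand of GRCm38 at chr6:41227696-41227993 (Trbv26), chr6:41151933-41152230 (Trbv16) and chr14:52638671-52638962 (Trav6-1). Positions are those of GENCODE vM21 and the sequence is that of the RefSeq genome of this build. The last 12 bases, in capitals, are the end that is joined in recombination.
Trbv26: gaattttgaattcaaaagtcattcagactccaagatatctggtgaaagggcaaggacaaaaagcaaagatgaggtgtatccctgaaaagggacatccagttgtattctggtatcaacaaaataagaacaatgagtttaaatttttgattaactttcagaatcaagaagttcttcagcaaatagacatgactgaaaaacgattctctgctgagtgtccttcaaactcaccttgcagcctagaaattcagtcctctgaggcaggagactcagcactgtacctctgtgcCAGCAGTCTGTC
Trbv16: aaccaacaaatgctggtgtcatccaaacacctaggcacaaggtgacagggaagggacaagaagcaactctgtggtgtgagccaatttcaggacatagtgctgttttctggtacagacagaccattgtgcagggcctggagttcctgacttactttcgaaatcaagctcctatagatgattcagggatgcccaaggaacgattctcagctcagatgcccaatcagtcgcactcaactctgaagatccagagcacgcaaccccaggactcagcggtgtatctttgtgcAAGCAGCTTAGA
Trav6-1: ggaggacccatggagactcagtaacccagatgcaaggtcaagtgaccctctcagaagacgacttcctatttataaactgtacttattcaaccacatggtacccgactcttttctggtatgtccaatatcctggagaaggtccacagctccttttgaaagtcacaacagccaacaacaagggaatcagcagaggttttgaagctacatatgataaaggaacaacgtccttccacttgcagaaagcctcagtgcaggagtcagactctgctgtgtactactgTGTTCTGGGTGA
Trbv26 was at 12.6 and 43.9 CPM (UMIs per 1000000 of a library) in AND replicates 1 and 2 and at 0 and 0.0281 CPM in F5, and Trbv16 was at 0.268 and 0 CPM in AND, against 13.3 and 16.3 CPM in F5. Trav6-1 was at 0.428 and 0 CPM in AND, against 14.4 and 21.5 CPM in F5. The genotypes did not overlap in any of these segments, and F5 lay above the highest of the other 13 mice for Trbv16 (2.87 CPM) and Trav6-1 (0.796 CPM). For Trbv26 the highest of those mice, at 16.04 CPM, lay above AND replicate 1. The difference passed the test for Trbv26 (log2 fold change, AND minus F5, 10.52 ± 0.547 SE, adjusted p = 0.00734) and Trbv16 (-6.87 ± 0.876, adjusted p = 0.0491), and Trav6-1 missed it (-6.49 ± 0.964, adjusted p = 0.0705). Trdv2-2 and Trav22, also among the leading V segments, were at 3.96 to 19.7 CPM in the 4 mice with no difference past the test. Trac, the constant segment of the α chain, was at 2899 and 3492 CPM in AND, against 743 and 704 CPM in F5 (2.23 ± 0.243, adjusted p = 0.0343). Rag1 RNA was counted, at 5.89 and 19.7 CPM in AND, against 19.1 and 53.6 CPM in F5, against 26.9 to 1587 CPM in the other 13 mice. RNA counts of this kind, from the 3′ end, do not check the deletion.

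Some libraries stood apart. AND replicate 2 had the lowest antibody depth, with a median of 971.5 antibody UMIs per cell against 5003, 6643.5 and 2778.5 in AND replicate 1 and F5 replicates 1 and 2, and 2419 of its cells were under 1000. Median RNA depth was alike, at 4491.5 to 5344.5 UMIs per cell. AND replicate 1 held 99 cells (3.70%) with an Amd1 mark, set at no fewer than 3 Amd1 UMIs and 5 Amd1 UMIs per 10000. The mark was carried by 96.4% and 95.7% of F5 cells and 3 cells of AND replicate 2. AND replicate 1 shared 33 cell barcodes with F5 replicate 1, other pairs of libraries 1 to 7. Erythroid markers summed to 1654 CPM in AND replicate 1 and at most 63.1 CPM in the others. Without the marked AND cells, 1095 genes passed in SP-like cells, each of which also passed with them, and CD4-CD8+ cells were 3.54% of AND replicate 1.

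AND thymi held CD4 single-positive cells and F5 thymi CD8 single-positive cells by surface protein. Each cell was thinned to 500 antibody UMIs and gated at 10 UMIs of CD4 and 10 UMIs of CD8 (CD8a plus CD8b), which left out 122 cells of AND replicate 2 and 7 to 67 of the other mice that had fewer UMIs. CD4+CD8- cells made up 58.8% and 61.9% of the gated cells in AND replicates 1 and 2 and 0.190% and 0.605% in F5. CD4-CD8+ cells made up 4.05% and 1.48% in AND and 23.9% and 20.2% in F5. The genotypes did not overlap in either gate, and the mice of a genotype lay within 4 percentage points of each other. CD4+CD8+ cells were 16.3% and 32.8% in AND and 74.4% in each F5 mouse. CD4-CD8- cells were 20.9% in AND replicate 1 and 1.48% to 4.77% in the other mice. Exact 95% Clopper-Pearson intervals, which cover counting error only, spanned 56.9% to 60.6% for CD4+CD8- cells of AND replicate 1 and 22.3% to 25.6% for CD4-CD8+ cells of F5 replicate 1. With 2 mice per genotype the two-sided exact permutation test over 6 splits cannot go below p = 0.333, which was its value in the 3 gates without overlap. Between 24.8% and 26.2% of F5 cells lay at 5 to 20 CD4 UMIs, near the cut, against 8.59% and 9.46% in AND, and 9.60% and 15.01% of AND cells lay at 5 to 20 CD8 UMIs, against 2.01% and 4.01% in F5. At a cut of 20 UMIs the CD4-CD8+ share was 38.7% and 34.4% in F5 and 6.34% and 9.08% in AND. The CD4+CD8+ gate is not the DP stage alone. Clusters 5 and 3, the CD8 SP-like cells of F5 by RNA, carried CD4 antibody at 316.1 and 292.2 per 10000 antibody UMIs in F5 replicates 1 and 2, which is above 10 in 500.

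**Figure D1:**
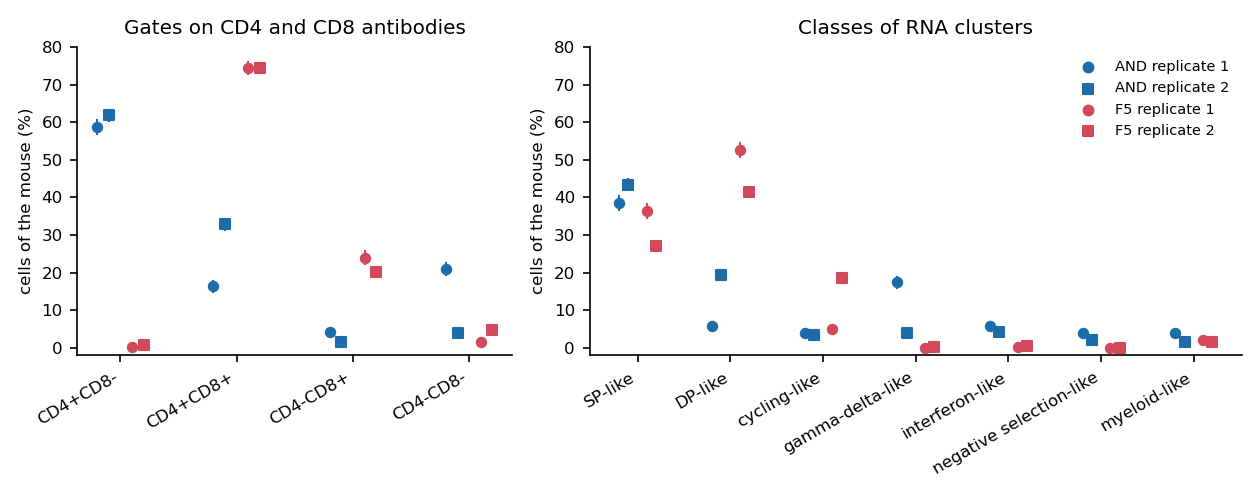
Share of each mouse's cells (%, y axis) in 4 gates on CD4 and CD8 antibodies, left, and in 7 classes of RNA clusters, right, with AND in blue, F5 in red, replicate 1 as circles and replicate 2 as squares. Bars are exact 95% intervals for counting error. CD4+CD8- cells were above 58% in AND and below 1% in F5.

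Clusters of RNA also held the genotypes apart. They were drawn on the RNA of the 4 mice together and named from marker genes, without the antibodies. SP-like cells were 38.5% and 43.4% of the cells in AND and 36.2% and 27.0% in F5, but in different clusters. Cluster 0, with St8sia6, Il6ra and S1pr1 among its leading genes, held 978 and 1854 cells of AND and 1 cell of F5. Clusters 5 and 3, led by Nkg7 and Ctsw, genes of cytotoxic granules, held 940 cells of F5 replicate 1 and 1192 cells of F5 replicate 2. DP-like cells were 5.76% and 19.4% in AND and 52.6% and 41.4% in F5. Here too the clusters differed by library, with cluster 6 mostly of AND replicate 2, cluster 2 of F5 replicate 1 and cluster 1 of F5 replicate 2, and they were joined to 1 class after their makeup had been seen. These shares depended on the clustering resolution. At 0.6, DP-like cells were 4.00% and 0.556% in AND and 89.5% and 15.7% in F5, and SP-like cells 54.5% and 65.0% in AND and 0.642% and 12.2% in F5. At 1.4 the DP-like share of F5 replicate 2 was 12.9%.

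Several smaller classes were found almost only in AND libraries. Cells called gamma-delta-like from markers such as Sox13, Blk and Maf were 17.4% and 3.84% in AND and 0.0378% and 0.155% in F5. Mice without Rag1 cannot rearrange gamma-delta receptors of their own, so the name rests on RNA markers alone. Among them were also Cd163l1 and Tcrg-C4, a constant segment of the gamma chain. Cells led by interferon-stimulated genes (Ifit1, Rsad2) were 5.76% and 4.19% in AND and 0.0756% and 0.375% in F5. Cells led by Nr4a1, Egr2 and Tnfrsf9, genes of strong TCR signals, were 3.85% and 2.18% in AND and 0 of 2646 and 0 of 4528 cells in F5, which allows shares of up to 0.113% and 0.0663%. No cluster took this name at resolution 0.6 or when the genes that mark the genotypes (Amd1, Cdk19, Cdk19os, Hltf and Cpa3) were left out of the clustering. In the latter case a cluster led by Fos, Egr2 and Nr4a1, with 41 and 110 cells of AND and 0 of F5, was called signaled DP-like. Cluster 4, with no name by the markers and led by Gpr83, Itm2a, Izumo1r and Zbtb7b, held 13.5% and 19.2% of AND cells and 0.0378% and 0.0663% of F5 cells. Cycling-like cells were 4.04% and 3.29% in AND and 5.06% and 18.6% in F5, a difference that rests on F5 replicate 2. Myeloid-like cells, at 1.52% to 3.78%, overlapped.

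Summed over all cells, RNA differed at 52 of 12163 genes tested (0.428%), 44 higher in AND (0.362%) and 8 lower (0.0658%), at an adjusted p under 0.05 with the experiment as a block. Differences over all cells can come from the makeup of the thymus as well as from change within cells, and in sums fewer cells of a type and less RNA per cell cannot be told apart. Zbtb7b was at 31.4 and 44.1 CPM in AND replicates 1 and 2 and 0.226 and 0.0562 CPM in F5, from 4 and 2 UMIs (8.36 ± 0.572, adjusted p = 0.00768). The AND mice lay within the range of the other 13 mice (2.16 to 49.0 CPM), and F5 lay below it. Cd40lg, the ligand by which helper T cells act on B cells, was at 25.7 and 62.4 CPM in AND, against 1.02 and 0.309 CPM in F5 (6.21 ± 0.724, adjusted p = 0.0396). Slfn1, a Schlafen family gene of resting T cells, was at 99.8 and 120.9 CPM against 3.95 and 1.66 CPM (5.51 ± 0.456, adjusted p = 0.0160). Ifi27l2a, an interferon-inducible gene, was at 217.7 and 311.7 CPM against 6.43 and 11.01 CPM (5.04 ± 0.303, adjusted p = 0.00734). For Slfn1 and Ifi27l2a it was again F5 that lay below the other 13 mice, whose lowest values were 30.9 and 171.6 CPM.

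Igfbp4, Gem and S100a8 were uneven between the AND mice. Igfbp4, which binds insulin-like growth factors, was at 618.5 and 222.5 CPM in AND, against 4.06 and 3.71 CPM in F5 (6.66 ± 0.477), and Gem, a small GTPase, at 59.5 and 23.6 CPM against 2.03 and 0.562 CPM (5.21 ± 0.327). Myo6, a myosin motor, was at 61.9 and 50.6 CPM against 3.05 and 1.60 CPM (4.76 ± 0.313). S100a8, a calcium-binding protein of neutrophils, was at 331.9 CPM in AND replicate 1 and 3.85 CPM in AND replicate 2, against 3.05 and 0 CPM in F5. It passed the test with the block (7.07 ± 0.492, adjusted p = 0.00768), and without the block its adjusted p was 0.411. With 1 mouse left out, in fits that also held the other mice of the series, its log2 fold change was 6.81 to 9.82. Without AND replicate 1 the AND side was AND replicate 2 alone, whose level was near that of F5 replicate 1. Its partner S100a9 had 325.0 CPM in AND replicate 1 and 0 in AND replicate 2. Of the gene lists, beside 0.362% of all genes higher, CD4 lineage genes had 2 of 13 tested higher (Zbtb7b and Cd40lg), maturation and egress genes 2 of 25 (Slfn1 and H2-Q7) and interferon-stimulated genes 1 of 25 (Ifi27l2a), and none of their members fell. Their medians were 0.81, 1.21 and 1.33, beside 0.01 for all genes. The count of genes was 25 without the block.

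A pair of neighbourhoods on chromosomes 10 and 3 separated the lines from all other mice. Amd1, an enzyme of polyamine synthesis at chr10:40287458-40302186 (GRCm38, minus strand), was at 83.7 and 35.1 CPM in AND, against 1658 and 1689.5 CPM in F5 (-4.85 ± 0.425, adjusted p = 0.0166), with the other 13 mice at 29.0 to 125 CPM. Cdk19, a kinase of the Mediator complex whose start lies 37.4 kb away, was at 25.9 and 25.2 CPM against 126.5 and 168.7 CPM (-2.42 ± 0.282, adjusted p = 0.0396). Cdk19os was at 4.55 and 0.0385 CPM in AND, against 167.9 and 163.2 CPM in F5, above the 0.734 CPM that was the highest value in the other mice, but missed the test (-6.99 ± 1.28, adjusted p = 0.106). F5 was thus the outlying line at this place, and the Amd1 and Cdk19os RNA of AND replicate 1 lay in part in its 99 marked cells. Cdk19os overlaps an exon of Cdk19 on the other strand, and since the sources used here do not say whether counting used strand, their reads cannot be told apart. Rpf2, Gtf3c6 and Slc16a10, the next genes on the other side, did not pass (log2 fold changes 0.0099, 0.20 and -0.020).

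On chromosome 3 it was AND that stood apart. Hltf, a DNA helicase of replication repair at chr3:20057811-20118490 (GRCm38, plus strand), was at 913.3 and 1189.9 CPM in AND, against 36.5 and 41.4 CPM in F5 (4.84 ± 0.280, adjusted p = 0.00734), with the other 13 mice at 27.9 to 63.1 CPM. Cpa3, a carboxypeptidase best known from mast cells that starts 184 kb away, was at 556.9 and 181.9 CPM against 1.19 and 1.46 CPM (7.94 ± 0.605, adjusted p = 0.0107), and at most 81.4 CPM elsewhere. Cpa3 is the leading gene of the gamma-delta-like cluster, which held 466 and 166 cells of AND and 1 and 7 of F5. Within 500 kb of the start of Hltf, 5 genes were tested and these 2 passed. Hps3 and Gyg, which lie nearer to Hltf than Cpa3, had log2 fold changes of 1.403 ± 0.314 and 0.61 ± 0.250 that did not pass. Gyg was at 56.8 and 46.2 CPM in AND, against 46.3 and 27.7 CPM in F5, so 3 of the 4 mice lay above the 32.2 CPM that was the highest value of the others. Around Amd1, 8 genes were tested and 2 passed. Where the transgenes are inserted was not tested.

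**Figure D2:**
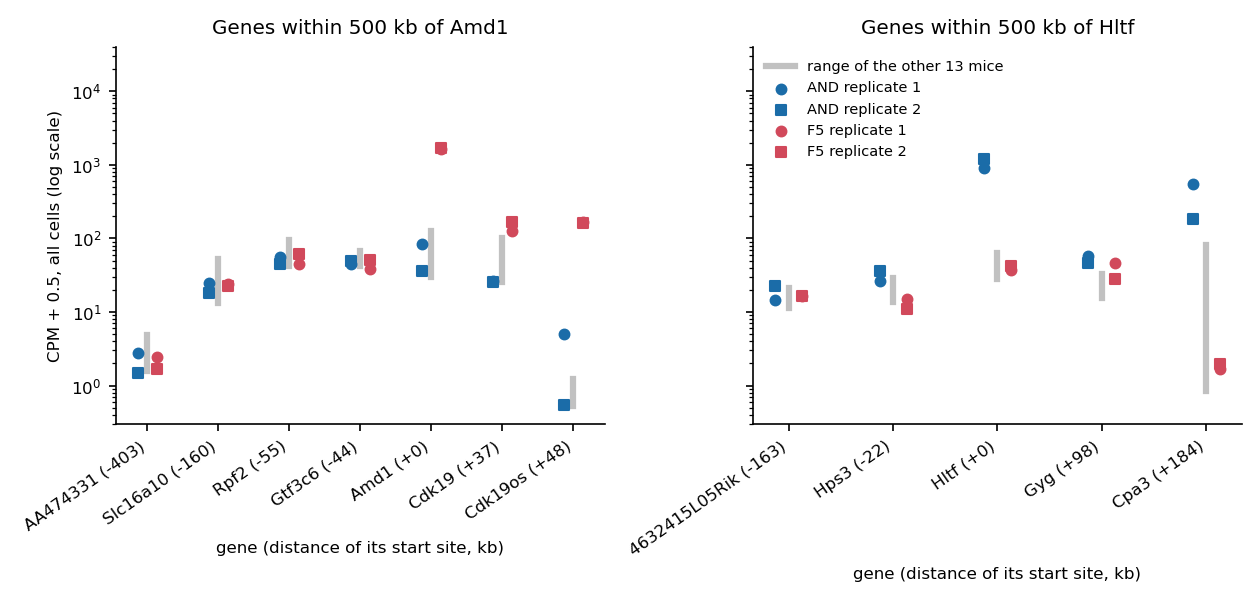
RNA level in all cells (CPM + 0.5, log scale) of genes with a mean of at least 1 CPM and start sites within 500 kb of Amd1, left, and Hltf, right, in the order of their distance in kb. AND is blue and F5 red, circles are replicate 1 and squares replicate 2, and grey bars span the other 13 mice. Amd1, Cdk19 and Cdk19os of F5, and Hltf and Cpa3 of AND, lie above those bars, as do Gyg of both AND mice and F5 replicate 1, Hps3 and 4632415L05Rik of AND replicate 2 and Cdk19os of AND replicate 1.

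Within SP-like cells, the lineage genes divided the genotypes. Of 9929 genes tested, 1516 passed (15.3%), 816 higher in AND (8.22%) and 700 lower (7.05%). The CD4 lineage list had 8 of 13 genes higher and 2 lower, with a median log2 fold change of 0.54. Zbtb7b was at 69.1 and 56.5 CPM in AND and had no UMI in SP-like cells of F5, at least 219-fold higher against a floor of 3 UMIs over the F5 mice. St8sia6, a sialyltransferase, was at 36.6 and 41.9 CPM in AND with no UMI in F5, at least 146-fold higher. Cd4 RNA was at 199.1 and 204.2 CPM against 16.4 and 22.6 CPM (3.55 ± 0.137, adjusted p = 1.05e-06), and Cd40lg at 48.3 and 83.9 CPM against 1.49 and 0.910 CPM (5.93 ± 0.274). Tnfsf8, Icos, Lef1 and Gata3 also rose, by 2.78, 0.54, 0.72 and 0.41 on the log2 scale. The 2 that fell were Myb (-1.22) and Satb1 (-0.54), a chromatin organizer that was at 731.6 and 806.1 CPM in AND, against 1186 and 1328 CPM in F5.

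The CD8 lineage list moved the other way, with 0 higher and 11 lower of 14 tested and a median of -2.47. Of all genes tested, 8.22% were higher and 7.05% lower. Cd8a was at 53.2 and 25.005 CPM in AND, against 849.6 and 771.6 CPM in F5 (-4.31 ± 0.196, adjusted p = 2.56e-06), and Cd8b1 at 135.3 and 102.8 CPM against 1126 and 1062 CPM (-3.05 ± 0.112). Runx3 was at 67.3 and 59.4 CPM against 317.6 and 250.3 CPM (-1.98 ± 0.111), so it was lower in AND but still counted. Nkg7, Ctsw and Cst7, genes of cytotoxic cells, fell by 4.04, 2.46 and 2.48, and Itgae, the integrin chain of tissue-resident CD8 cells, fell by 2.49. Nkg7 was uneven in AND, at 38.4 and 6.46 CPM, against 383.1 and 273.2 CPM in F5. In AND replicate 1 it was at 12.1 CPM in cluster 0. It was at 517.5 CPM in the 48 cells of that mouse in cluster 5, mostly a cluster of F5, where their Amd1 was at 932.5 CPM. Of the 99 cells of AND replicate 1 with the Amd1 mark, 73 lay in clusters 1, 2, 3 and 5. Zbtb7b, Cd4, Cd8a, Runx3 and Nkg7 were among the markers that named the clusters, so their contrast describes the classes as well as the genotypes. Where the cells were instead taken by the single-positive antibody gates, 61 of 10937 genes passed (0.558%), 42 higher in AND (0.384%) and 19 lower (0.174%), 55 of them among the 1516, and Zbtb7b (7.64), Cd40lg (7.17), Cd8a (-3.13) and Nkg7 (-3.16) were among them. St8sia6 (6.14 ± 0.849, adjusted p = 0.0561) and Ly6d (-5.02 ± 0.867, adjusted p = 0.0818) were not.

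**Figure D3:**
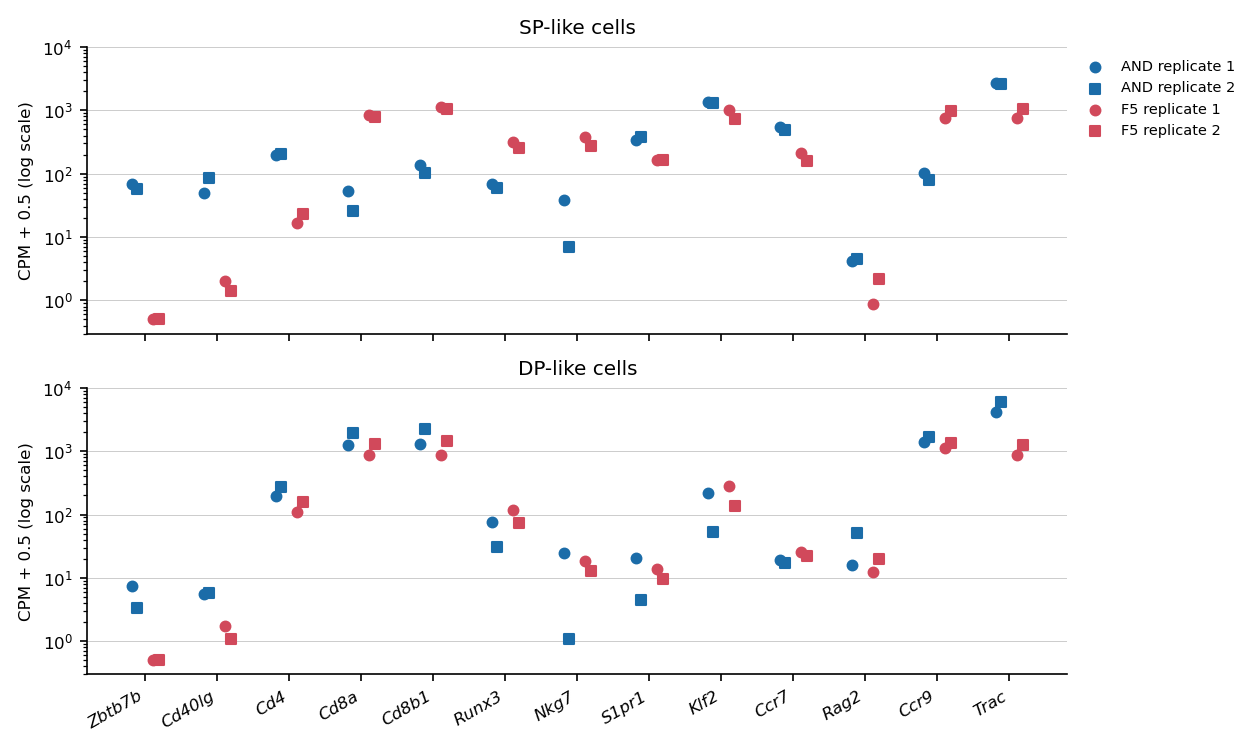
RNA level (CPM + 0.5, log scale) of 13 genes in SP-like cells, top, and DP-like cells, bottom, with AND in blue, F5 in red, replicate 1 as circles and replicate 2 as squares. In SP-like cells Zbtb7b, Cd40lg and Cd4 lie higher in AND and Cd8a, Cd8b1, Runx3, Nkg7 and Ccr9 lie lower.

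Genes of late maturation were higher in the clusters of AND named SP-like. S1pr1, Klf2 and Ccr7 were among the markers for naming clusters, and cluster 0 took its name by a tie that included S1pr1, so the contrast of these genes also describes how the class was chosen. Cluster 4 of AND, which the markers left unnamed, had less of them, with S1pr1 at 20.04 and 36.9 CPM and Klf2 at 343 and 319 CPM, and more Ccr9, at 777 and 871 CPM. At resolution 0.6 a cluster that was also led by Gpr83 and Itm2a, with 419 and 845 cells of AND, was called SP-like. The maturation and egress list had 21 of 25 genes higher and 1 lower, with a median of 0.88 beside -0.0013 for all genes tested. Of all genes tested, 8.22% were higher and 7.05% lower. Ccr7, the receptor that draws cells to the medulla and lymph nodes, was at 549.3 and 483.3 CPM in AND, against 211.0 and 160.7 CPM in F5 (1.65 ± 0.108, adjusted p = 1.57e-05). S1pr1, the exit receptor, was at 337.5 and 378.1 CPM against 166.5 and 164.4 CPM (1.28 ± 0.107), and Klf2, which drives it, at 1373 and 1314 CPM against 1025 and 737.8 CPM (0.80 ± 0.115). H2-K1 and H2-D1, the classical class I molecules, rose by 1.84 and 1.12, and Bcl2, which keeps cells alive, by 1.37. Gpr183, an oxysterol receptor, was at 77.2 and 109.1 CPM against 15.6 and 10.9 CPM (2.98 ± 0.216), and Il6ra, a chain of the interleukin-6 receptor, at 114.5 and 91.3 CPM against 18.0 and 6.92 CPM (3.27 ± 0.216). The interferon-stimulated list had 10 of 16 higher and none lower (median 0.87), with Ifit1 at 5.08 and 6.67 CPM against 0.186 and 0.182 CPM, and Irf7 up by 1.72. When cluster 4 was added to the class, an alternative chosen after seeing the data, 1227 of 10019 genes passed (12.2%), 663 higher (6.62%) and 564 lower (5.63%), and 14 of 25 maturation genes were higher and 1 lower (median 0.75), with S1pr1 at 0.77 ± 0.0937 and Klf2 at 0.37 ± 0.0985. In the antibody gates, where 0.384% of all genes were higher, 2 of 25 maturation genes and 3 of 23 interferon genes were, with medians of 1.08 and 2.02.

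Genes of the preceding DP stage were lower in AND cells named SP-like. The preselection DP list had 14 of 18 genes lower and 1 higher, beside 7.05% and 8.22% of all genes, with a median of -0.94. Ccr9, the chemokine receptor of immature thymocytes, was at 103.3 and 79.5 CPM in AND, against 751.4 and 965.1 CPM in F5 (-3.07 ± 0.160, adjusted p = 4.70e-06). Cd24a fell by 3.04, and Dntt, which adds bases at receptor joints, was at 8.17 and 16.7 CPM against 31.3 and 77.0 CPM. Rag2 was the exception, at 3.75 and 4.06 CPM in AND, against 0.372 and 1.64 CPM in F5 (2.11 ± 0.554, adjusted p = 0.0313). In the antibody gates 1 of 20 members passed as lower, beside 0.174% of all genes, with a median of -0.93. With cluster 4 added, 10 of 18 were lower (5.63% of all genes) and none higher, and Ccr9 was at 278.9 and 335 CPM in AND (-1.38 ± 0.0853). The counts of genes of stage thus rest in part on which clusters received a name.

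The direction of TCR signal targets in SP-like cells depended on cluster 4. Without it, 3 of 23 tested were higher and 4 lower, beside 8.22% and 7.05% of all genes, and the median was -0.0044. With it, 9 of 24 were higher and 0 lower, beside 6.62% and 5.63% of all genes, and the median was 0.37. Egr1, Egr2 and Nab2, the early growth response factors and their corepressor, and Bcl2l11, which encodes the death factor BIM, were lower without cluster 4. Egr2 was at 5.96 and 4.38 CPM in AND, against 26.1 and 10.9 CPM in F5 (-1.55 ± 0.256, adjusted p = 0.00325), but at 50.1 and 43.3 CPM in cluster 4, and with that cluster its difference was 0.098 ± 0.267 (adjusted p = 0.858). Tnfrsf4, which encodes OX40, was at 15.2 and 13.5 CPM against 2.42 and 2.18 CPM (2.80 ± 0.272), and Irf4 and Myc rose by 2.49 and 0.90. Cd5 and Cd69, common gauges of receptor signal, had log2 fold changes of 0.14 ± 0.135 and -0.70 ± 0.235 that did not pass. With cluster 4, where Cd5 was at 328 and 355 CPM and Cd69 at 176 and 179 CPM, they were 0.54 ± 0.129, which passed (adjusted p = 0.0333), and 0.55 ± 0.282, which did not (adjusted p = 0.263). In the antibody gates 1 of 27 targets was higher, beside 0.384% of all genes, and the median was 0.53.

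Without cluster 4, 8.22% of all genes were higher and 7.05% lower. Against these shares, the 20 proximal signaling genes had 2 higher (Fyn and Rasgrp1) and 6 lower, the calcineurin-NFAT genes 2 higher (Nfatc2 and Rcan3) of 9, and the cell cycle genes 1 higher and 1 lower of 26.

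Other values moved with the genotype in SP-like cells. All 13 genes encoded by mitochondria were tested and 12 were higher in AND, beside 8.22% of all genes. The 13 genes summed to 64163 and 61987 CPM in AND, against 48348 and 42396 CPM in F5. Among markers of other cells, the B cell genes Cd79b, Ighm and Ighd were lower in AND, with the 11 B cell markers at 165.5 and 182.5 CPM in AND, against 361.7 and 348.8 CPM in F5. Myeloid markers summed to 91.2 to 122.6 CPM in the 4 mice and none of the 4 tested passed. The part of these values in the list counts was not tested. The count of 1516 genes was 837 without the block. Of the counts above, those of CD8 lineage genes (11 lower) and interferon genes (8 higher) were least changed without the block, while maturation genes fell to 14 higher and preselection genes to 9 lower. Over all genes 4.48% were higher and 3.95% lower without the block.

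**Figure D4:**
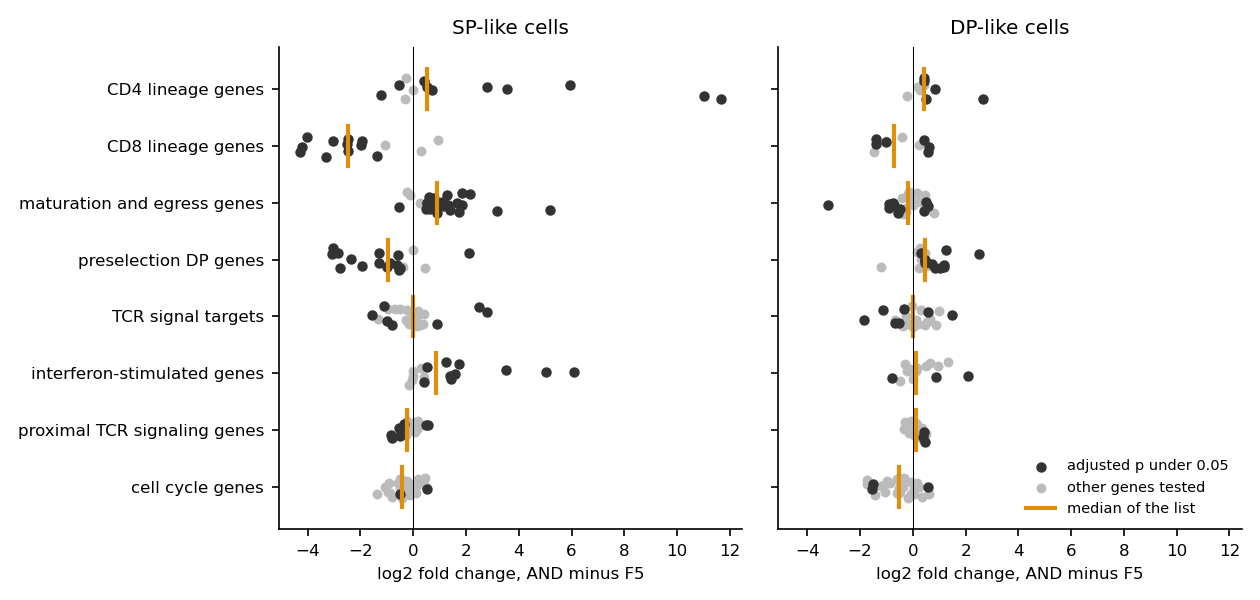
Log2 fold changes, AND minus F5, of the genes of 8 lists in SP-like cells, left, and DP-like cells, right. Dark points passed an adjusted p under 0.05, grey points did not, and the orange bar is the list's median. In SP-like cells 11 of 14 CD8 lineage genes lie to the left as dark points and 21 of 25 maturation genes to the right, without cluster 4.

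In DP-like cells, 510 of 10109 genes passed (5.05%), 276 higher in AND (2.73%) and 234 lower (2.31%), but 35 without the block. AND replicate 1 gave 154 cells, 106 of them without the Amd1 mark, and 891 genes passed when the marked AND cells were left out. In cells taken by the CD4+CD8+ antibody gate, 15 of 11084 passed (0.135%), all higher in AND. The preselection DP list had 11 of 20 genes higher and none lower (median 0.47), the opposite sign to SP-like cells. Aqp11, a gene of resting DP cells, was at 291.1 and 415.4 CPM in AND, against 165.7 and 155.3 CPM in F5 (1.17 ± 0.132, adjusted p = 2.68e-05), and Rag2 at 15.3 and 50.2 CPM against 11.99 and 19.4 CPM (1.19 ± 0.225). This list kept 1 higher gene without the block, none in the antibody gate (median 0.096), and 4 higher and 2 lower at resolution 1.4, where 1.31% of all genes were higher and 1.46% lower. Aqp11 and Rag2 were among the markers for naming clusters. Aqp11 was the only naming marker of its class among the leading genes of cluster 6, mostly of AND. The contrast of these genes thus also describes how the class was chosen.

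Constant segments of the receptor chains also differed in DP-like cells. Trac was at 4174 and 5939 CPM in AND, against 880.8 and 1270.0 CPM in F5 (2.25 ± 0.0683, adjusted p = 3.43e-13), and Trbc1 at 10268 and 16145 CPM against 5190.0 and 5141 CPM (1.34 ± 0.0969). Trbc2 was alike in all 4 mice, at 4279.6 to 5011 CPM. RNA of the coreceptors Cd4, Cd8a and Cd8b1 was higher in AND by 0.83, 0.57 and 0.61. Nr4a1, a fast target of TCR signals, was at 18.7 and 6.31 CPM in AND, against 41.7 and 29.0 CPM in F5 (-1.84 ± 0.273, adjusted p = 4.40e-04), and Nab2, Id3, Bcl2l11 and Pdcd1 also fell. The class joins different cells in each mouse, since most DP-like cells of F5 replicate 1 were in cluster 2, named signaled DP-like, and most of the other mice in clusters 6 and 1, named quiescent DP-like. Rag1, which these mice lacked, was the only naming marker of its class among the leading genes of cluster 1. At resolution 0.6 and without the genotype marks, the cluster led by Cdk19os, mostly of F5 replicate 2, had no name. Nr4a1 was at 42.3 CPM in cluster 2 and 25.8 CPM in cluster 1 of F5, and at 14.9 and 6.14 CPM in cluster 6 of AND. Nab2, Id3 and Egr1 were among the markers for naming signaled DP-like clusters, and Nab2 was the only one among the leading genes of cluster 2. Their contrast thus also describes how the class was chosen. Dusp6, a phosphatase of ERK kinases, was at 34.0 and 46.2 CPM against 11.5 and 16.97 CPM (1.496 ± 0.203, adjusted p = 2.12e-04), and Egr1 rose by 0.56, so the 22 signal targets held 2 higher and 5 lower (median 0.025). Over all genes tested in this class, 2.73% were higher and 2.31% lower. Gzma, a granzyme, was at 194.1 and 94.97 CPM in AND, against 361.7 and 324.7 CPM in F5, and Runx3 fell by 1.00. No signal target passed without the block.

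The leading genes in DP-like cells, the 5 in each direction with the largest fold past the test, lay outside these lists. Hltf was at 1859 and 2379 CPM in AND, against 40.0 and 56.8 CPM in F5 (5.48 ± 0.106), and Fst, the activin-binding follistatin, at 35.7 and 14.1 CPM against 0.375 and 0.361 CPM (5.92 ± 0.538). Eif3j2, a subunit of a translation initiation factor, was at 34.0 and 39.9 CPM against 3.25 and 3.85 CPM (3.39 ± 0.269). These 3 also passed without the block and in the antibody gate. Sqrdl, an enzyme of sulfide oxidation, was at 5.11 and 0 CPM in AND, against 26.1 and 21.1 CPM in F5 (-4.77 ± 0.602), and Pla2g16, a phospholipase, at 15.3 and 4.30 CPM against 46.8 and 38.9 CPM (-2.66 ± 0.304). With 1 mouse and the block left out, Sqrdl ran from -10.27 to -2.23 and Pla2g16 from -3.26 to -1.51. In the CD4+CD8+ gate neither passed edgeR's test (adjusted p = 0.220 and 0.0526). Nav2, AA467197 and Dqx1 had log2 fold changes of 2.57, 3.22 and -2.77, and Amd1 and Cdk19os of -3.95 and -4.19. With 1 mouse and the block left out, Nav2 ran from 1.61 to 3.46, AA467197 from 2.54 to 3.85 and Dqx1 from -9.74 to -2.41. Amd1 ran from -6.84 to -1.82 and Cdk19os from -9.91 to -1.81. In AND, Amd1 was at 648.6 and 18.9 CPM in replicates 1 and 2. None of these genes passed in the antibody gate. The globin genes Hbb-bs and Hba-a1 passed as lower in AND, from F5 replicate 2, where they were at 84.3 and 29.5 CPM, against 0 to 15.3 CPM in the other mice. Mitochondrial genes were higher in AND at 10 of 13, beside 2.73% of all genes, with sums of 59883 and 63074 CPM against 45424 and 42125 CPM.

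Cycling-like cells differed at 18 of 8985 genes (0.2%), 13 higher in AND (0.145%) and 5 lower (0.0556%), and none of the 10 leading genes lost its call in any alternative. The balance of directions was not stable when 1 mouse and the block were both left out. In those fits Hltf ran from 4.82 to 5.35 and Ly6d from -3.98 to -2.44. Hltf was at 824.7 and 1162 CPM in AND, against 26.2 and 32.5 CPM in F5 (5.13 ± 0.280), and Eif3j2 at 58.0 and 61.2 CPM against 4.44 and 4.65 CPM (3.75 ± 0.281). Igfbp4, Cd163l1, a scavenger receptor of gamma-delta T cells, and Tox2, an HMG-box factor, were higher by 4.04, 3.46 and 3.34. Ly6d, a surface antigen of immature lymphocytes, was at 167.5 and 56.9 CPM in AND, against 1063 and 823.4 CPM in F5 (-3.19 ± 0.348, adjusted p = 0.0135). Cdk19os had no UMI in AND and 32.1 and 56.5 CPM in F5, at least 84.2-fold lower, and Amd1, Sapcd1 and Cdk19 fell by 4.39, 2.52 and 1.96. Trac was at 2898 and 4386 CPM in AND, against 516.1 and 440.3 CPM in F5, the same direction as in the other classes. No cell cycle gene passed.

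Myeloid-like cells, 54 to 101 per mouse, differed at 180 of 6723 genes (2.68%), 141 higher in AND (2.1%) and 39 lower (0.58%), but at 20 without the block, 39 without the marked AND cells and 0 with the pairing of the mice crossed (344 at an unadjusted p under 0.05 by edgeR). Ccl9, a chemokine, was at 1.85 and 9.32 CPM in AND, against 106.6 and 99.4 CPM in F5, and Cd209f and Cd163, a lectin and a scavenger receptor of macrophages, were at 11.1 and 5.59 CPM and 9.24 and 7.46 CPM in AND against 149.0 and 122.7 CPM and 67.2 and 80.4 CPM in F5. All 3 fell, by 4.04, 3.85 and 2.97. The class joins cluster 13, led by Ccl5 and class II genes such as H2-Aa, and cluster 14, led by C1qa and C1qb, complement genes of macrophages, which held 53 and 48 cells of AND replicate 1, 38 and 31 of AND replicate 2, 21 and 33 of F5 replicate 1 and 47 and 22 of F5 replicate 2. A different mix of these clusters and a change within them cannot be told apart in its sums. Xcr1 and Clec9a, markers of cross-presenting dendritic cells, rose by 2.16 and 2.64 in RNA. The antibodies to their products, XCR1 and CD370, differed by 0.53 ± 0.357 and 0.75 ± 0.478. Neither passed edgeR's test (adjusted p = 0.37 and 0.35). Of the interferon-stimulated genes 6 of 14 rose, with Irf7 at 103.5 and 111.8 CPM in AND, against 10.2 and 10.6 CPM in F5. Ccl8, Tm4sf5, Adamdec1 and Dapl1 had no UMI in F5 and were at least 18.6-, 14.7-, 13.2- and 11.5-fold higher in AND. T cell genes moved in these cells as well, with Zbtb7b at 33.3 and 24.2 CPM in AND, against 4.38 and 4.23 CPM in F5, and Cd8a at 135.0 and 298.3 CPM against 486.5 and 488.6 CPM. In AND replicate 1, erythroid markers summed to 56223 CPM and S100a8 reached 11409 CPM in these cells, against at most 11.2 and 184.5 CPM in the other mice, and 24 of its 101 cells and 19 of the 54 cells of F5 replicate 1 carried a barcode shared with another library. The part of free RNA and of those cells in the result was not tested.

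Among surface proteins, CD8 was lower in AND over all cells and in SP-like cells, and CD4 passed as higher only in SP-like cells with the scaling by TMM. Over all cells, 6 of 111 antibodies passed (5.41%), 2 higher in AND (1.8%) and 4 lower (3.6%). CD8a was at 141 and 190.0 per 10000 antibody UMIs in AND and 788 and 648 in F5 (-2.61 ± 0.528, adjusted p = 1.55e-04), and CD8b at 206 and 359 against 1314 and 1067 (-2.61 ± 0.526). CD24, a marker of immature cells, was at 131 and 59.4 against 235 and 194. CD304 also fell, but at 10.1 and 19.3 against 17.9 and 44.6 the genotypes overlapped. It was at 71.8 to 129 per 10000 in cycling-like cells, more than in the other classes tested. CD304 did not pass in SP-like, DP-like or cycling-like cells. CD55, which guards against complement, was at 19.4 and 21.2 against 4.58 and 5.34 (1.55 ± 0.445), and CD127, the interleukin-7 receptor, at 9.95 and 31.4 against 4.03 and 5.83 (1.38 ± 0.450, adjusted p = 0.0495). CD127 was at 25.4 to 33.9 in every class tested in AND replicate 2, the library with the lowest antibody depth, and at 5.28 to 10.6 in those of AND replicate 1, and the part of depth in this was not tested. CD4 was at 1037 and 777 in AND and 529 and 448 in F5, without overlap, but its scaled difference did not pass (0.40 ± 0.497, adjusted p = 0.772). The scaling set this value, since dividing by all antibody UMIs instead moved the median over antibodies from -0.0034 to 0.48 and gave 9 higher and 3 lower.

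The scaling also set the balance of calls in the classes. With library size in place of TMM, an alternative chosen after seeing the data, 13 were higher and 4 lower in SP-like cells, 0 passed edgeR's test in DP-like cells (17 at an unadjusted p under 0.05), 4 were higher and 0 lower in cycling-like and 11 higher and 3 lower in myeloid-like cells. The median over antibodies was then 0.38, 0.27, 0.73 and 0.70 in these classes, against 0.018, -0.056, 0.091 and 0.0025 with TMM.

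Within SP-like cells with TMM, 10 antibodies passed (9.01%), 4 higher (3.6%) and 6 lower (5.41%), and 8 passed in DP-like cells (7.21%), 2 higher (1.8%) and 6 lower (5.41%). In SP-like cells CD4 was at 1616 and 998 per 10000 in AND and 317 and 246 in F5 (1.83 ± 0.309, adjusted p = 1.06e-06), and CD8b at 86.6 and 32.6 against 1427 and 992 (-4.84 ± 0.352, adjusted p = 1.05e-23). Such small p-values rest on a spread pooled over the antibodies, not on that between 2 mice alone. CD8a, CD24, CD28, CD90.2 and CD48 fell as well, by 4.32, 2.30, 1.31, 1.27 and 0.95, and CD55, CD127 and CD335 rose by 1.66, 1.65 and 1.503. CD69, CD5 and TCR β chain had differences of 0.85, -0.21 and 0.43 that did not pass. None of these 10 passed in the antibody gates, with 15 antibodies at an unadjusted p under 0.05 by edgeR. Fits with 1 mouse left out also dropped the block. In them CD4 ran from 0.904 to 2.60, CD8b from -6.15 to -3.77 and CD48 from -1.87 to -0.151. With cluster 4 in the class, 2 antibodies passed, both lower, and CD4 had a difference of 1.702 ± 0.168 (adjusted p = 0.0866). In DP-like cells CD8a was at 736 and 542 per 10000 in AND, against 831 and 706 in F5, a fall of 0.61 relative to the other antibodies by TMM, and CD24, CD29, CD48, CD28 and CD43 fell by 0.61 to 0.89. By library size CD8a and CD43 each differed by -0.28, and neither passed (adjusted p = 0.3696 each). No antibody passed in DP-like cells at resolution 1.4 or in the CD4+CD8+ gate, where up to 16 were at an unadjusted p under 0.05 by edgeR. With 1 mouse and the block left out, CD8a, CD24, CD43 and CD48 ran from -1.31 to 0.044, -1.99 to 0.11, -1.49 to 0.32 and -1.69 to 0.012. CD335, a natural killer receptor, was at 53.4 and 128 in AND and 17.7 and 34.2 in F5 in DP-like cells, highest in the library with the lowest antibody depth, and I-A/I-E (MHC class II) was at 117 and 48.8 against 25.6 and 20.4. Cycling-like cells had 0 of 111 past edgeR's test (0%), with 8 at an unadjusted p under 0.05 (7.21%). Myeloid-like cells had 18 (16.2%), 3 higher (2.7%) and 15 lower (13.5%), a balance that was not kept when 1 mouse and the block were left out. Those named by the rule were CD326, CD54 and Sca-1, higher by 1.45, 1.25 and 0.95 and, among the lower, CD8b, CD8a, CD304, CD301a, CD90.2, Tim-4, CD24, CD45.2, F4/80 and CD301b, which fell by 1.15 to 2.60 by TMM. By library size only CD8b, CD8a and CD90.2 of these 10 passed as lower. F4/80 was at 44.1 and 36.4 per 10000 in AND, against 56.1 and 58.01 in F5, and differed by -0.51 ± 0.447 by library size and by -1.20 ± 0.347 by TMM. CD301b and CD45.2 differed by -0.46 and -0.58 by library size. No antibody passed in all cells or in any class without the block, when 4 to 17 were at an unadjusted p under 0.05 by edgeR.

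The other transgenic pair of the series, OT-II against OT-I, was set beside the AND and F5 pair. The genes named here were chosen for their change between AND and F5. OT-II is a class II and OT-I a class I receptor, both from mice with Rag1 and from another experiment, so background, Rag1 and experiment cannot be told apart in this contrast. The difference between the pairs passed at 938 of 13592 genes (6.9%), 544 more positive in AND minus F5 (4%) and 394 more negative (2.9%). Zbtb7b differed by 8.37 ± 0.470 between AND and F5 in this fit and by 1.03 ± 0.298 between OT-II and OT-I, which did not pass (adjusted p = 0.0802). It was at 6.60 and 10.4 CPM in OT-I and at most 19.6 CPM in OT-II, and the difference of the pairs was 7.34 ± 0.565 (adjusted p = 4.70e-05). Both OT-I mice thus lay above both F5 mice, at 0.226 and 0.0562 CPM. Hltf, at 45.8 to 58.6 CPM in the 4 OT mice, and Amd1, at 35.5 to 121 CPM, did not differ past the test in the OT pair (-0.17 ± 0.183 and -0.0058 ± 0.664). Cpa3, Igfbp4 and Myo6 were higher in AND than in F5 but lower in OT-II than in OT-I, by 2.69, 2.08 and 1.98, each past the test. S100a8 was higher in the class II line of both pairs, by 6.97 and 11.13, at 949.4 and 561.5 CPM in OT-II and 0.436 and 0.0719 CPM in OT-I. In the AND and F5 pair its level rested on AND replicate 1, at 331.9 CPM. AND replicate 2 was at 3.85 CPM, and F5 at 3.05 and 0 CPM.

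**Figure D5:**
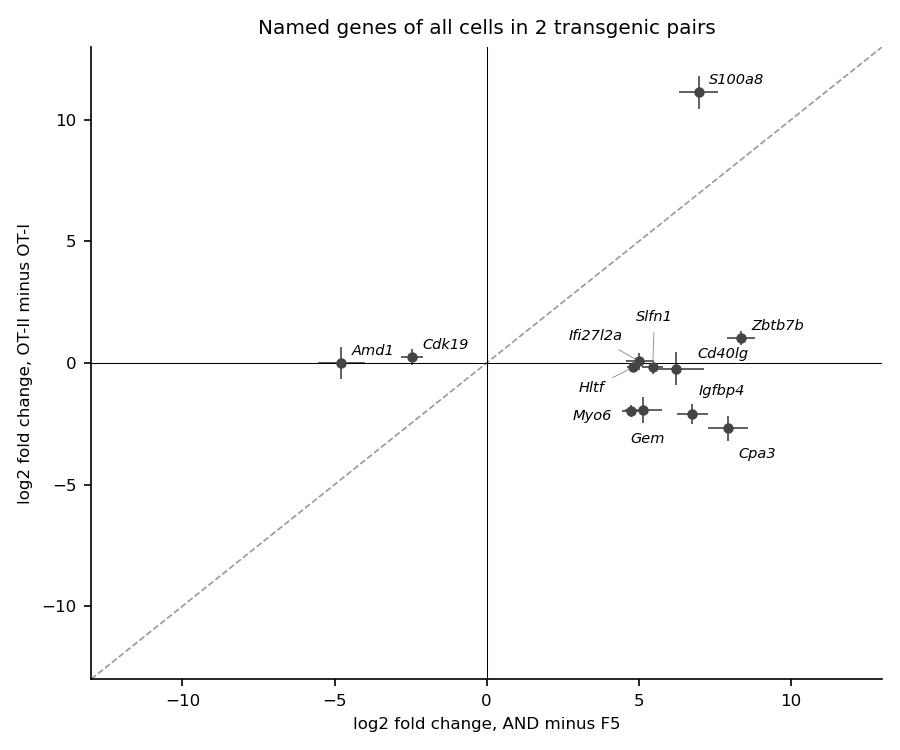
Log2 fold change of 12 leading genes over all cells between AND and F5 (x axis) and between OT-II and OT-I (y axis), with bars of 1 SE and a dashed line of equal change. The genes were chosen for their change between AND and F5. Zbtb7b lies at 8.37 and 1.03, and Hltf, Amd1, Slfn1, Ifi27l2a, Cd40lg and Cdk19 lie near 0 on the y axis.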

How the data were processed

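RNA and 111 surface antibodies were measured by CITE-seq in unsorted thymocytes of 2 AND and 2 F5 mice. The deposited values are UMI counts per gene or antibody and cell, made by the authors with Cell Ranger 3.1.0 (submitters' processing notes) on mm10, with no normalization. The sources used here do not say whether counting used strand. Libraries held 17760419 to 35821177 RNA UMIs and 4484116 to 18497560 antibody UMIs. Counts were summed per mouse and tested with edgeR 4.0.16 (quasi-likelihood, TMM, filterByExpr for RNA, no filter for antibodies, R 4.3.3) with the experiment as a block, which left 1 residual degree of freedom, and p-values were adjusted by Benjamini-Hochberg over all features tested. Fold changes are log2, AND minus F5, and SE was taken as the size of the fold change over the square root of F. The test pools spread over features, so its p-values do not measure the spread between 2 mice alone. The weight of this pooling differed by class. By edgeR's test, CD137 at 1.35 ± 0.419 in cycling-like cells had an unadjusted p of 0.0138. CD28 at -0.758 ± 0.236 in DP-like cells had 0.00174. Counts of calls are therefore not on an equal footing across classes. Fits with 1 mouse left out used all other mice of the series for all cells, and dropped the block in the classes. Genes without UMIs in a genotype were given a bound from 3 UMIs over that genotype. Nothing in the labels says how the mice of an experiment were related beyond the experiment, and the deviations of same-numbered mice correlated at -0.2113 over 7683 genes.

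Cells were clustered with scanpy 1.11.5 (2000 variable genes, 30 components, 20 neighbors, Leiden resolution 1) and clusters named from fixed markers. Called doublets (0.8% per 1000 barcodes) stayed in, and leaving them out was an alternative. The members and lists were chosen with earlier results of these data known. Text names the 10 genes with the largest change in each direction over all cells, and 5 per class, at an adjusted p under 0.05, a mean of at least 10 CPM and the same direction in both experiments, leaving out receptor segments and Gm or Rik genes; up to 10 called antibodies per direction, with CD4, CD8a, CD8b, CD5, CD69, CD24, CD127 and TCR β always; the 3 leading V segments per genotype; and members of 24 gene lists. Some members are not reported here. Of 28692 gene IDs, 28339 matched GENCODE vM21. On simulated counts for all cells, the test recovered 85.7% of genes changed by 2 and 12.8% of genes changed by 1 on the log2 scale. It called 152 genes, 5 of them unchanged. The simulation took its spread from the trend over genes and gave same-numbered mice a shared experiment effect, so recovery in the real data can be lower.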

Additional observations from a re-analysis of the deposited data

Results flagged for a closer look

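For 12 leading genes over all cells, the change between AND and F5 differed from that between OT-II and OT-I by edgeR's test of the difference itself. These genes were chosen for large changes between AND and F5. The same libraries entered this test, so the choice made a pass likely. Over all genes tested, 6.9% passed. The differences on the log2 scale were 7.34 for Zbtb7b, 10.62 for Cpa3, 8.85 for Igfbp4, 6.47 for Cd40lg, 5.63 for Slfn1 and 7.08 for Gem. They were 4.94 for Ifi27l2a, 4.99 for Hltf, 6.72 for Myo6, -4.77 for Amd1, -2.70 for Cdk19 and -4.16 for S100a8. The 2 pairs differ in Rag1 and experiment as well as in receptor, which cannot be told apart. The call was lost for S100a8 without F5 replicate 1 or AND replicate 1, and for Amd1 without AND replicate 2 or F5 replicate 2.

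Hashtag antibodies, which no comparison used, were counted in the ZRS06 libraries, except Hashtag3 in AND replicate 1, and at 0 in those of ZRS07. AND replicate 1 had 112.09 UMIs of Hashtag2 and 0.463 of Hashtag1 per 10000 antibody UMIs, and 0 UMIs of Hashtag3, also in its 99 cells with the Amd1 mark. F5 replicate 1 had 70.9 of Hashtag3, 0.173 of Hashtag2 and 0.0594 of Hashtag1. Each value above 0 was above the limit that a count of 0 allows, 0.00214 and 0.00163 per 10000 in these libraries.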

How the results depend on the processing

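With 2 mice per genotype, counts of calls moved with most choices, and the cause was not tested. Without the experiment block, RNA calls numbered 25 in all cells, 837 in SP-like, 35 in DP-like, 34 in cycling-like and 20 in myeloid-like cells, and antibody calls 0 in all cells and in each class. With the pairing of mice crossed (chosen after seeing the data), RNA calls were 155, 612, 21, 69 and 0 and antibody calls 0. In all cells, 260 genes passed by DESeq2, 210 by RLE scaling, 576 with no filter on low counts, 404 with all 17 mice, 214 within the antibody limits, 22 with doublets left out, 31 without shared barcodes, 128 without Amd1-marked AND cells and 123 to 364 with 1 mouse left out. Antibody calls there were 12 by library size, 24 by DESeq2, 17 with all 17 mice and 3 to 36 with 1 mouse left out.

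Cluster 4 added to SP-like cells (chosen after seeing the data) gave 1227 RNA calls and 2 antibody calls. Antibody gates gave 61 RNA calls for SP-like and 15 for DP-like cells, and 0 antibody calls, with 15 and 16 at an unadjusted p under 0.05 by edgeR. Resolution 1.4 gave 262 RNA and 0 antibody calls (13 unadjusted) in DP-like and 31 RNA calls in cycling-like cells, and resolution 0.6 gave 42 in cycling-like and 114 in myeloid-like cells. Without doublets, cycling-like cells had 34 RNA calls, and SP-like, DP-like and myeloid-like cells 4, 1 and 9 antibody calls. Without shared barcodes cycling-like cells had 42. Without marked AND cells DP-like and myeloid-like cells had 891 and 39 RNA calls and myeloid-like cells 8 antibody calls. With 1 mouse left out, RNA calls were 498 to 1232 in SP-like, 1 to 209 in DP-like, 35 to 67 in cycling-like and 67 to 306 in myeloid-like cells, and antibody calls 0 to 1, 0 to 0, 0 to 18 and 0 to 46. SP-like and DP-like cells at resolution 0.6, and myeloid-like cells at 1.4 or without shared barcodes, had a mouse under 50 cells and were not tested. The difference of the pairs passed at 1437 genes by DESeq2 and 500 to 1120 with 1 mouse left out.

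Shares moved with the clustering. AND minus F5 was 53.3 percentage points for SP-like cells at resolution 0.6, -50.3 and -21.5 for DP-like cells at 0.6 and 1.4, and 0 for negative selection-like cells at 0.6 and without genotype marks (2.18 to 3.85 with 1 mouse left out). At a cut of 20 UMIs it was 61.7 for CD4+CD8- and -28.9 for CD4-CD8+ cells. With library size in place of TMM (chosen after seeing the data), antibody calls were 17 in SP-like, 0 in DP-like, 4 in cycling-like and 14 in myeloid-like cells. Among the leading genes and the antibodies named by rule, directions reversed for antibodies only. Members of the gene lists such as Egr2 and Cd69 changed sign in SP-like cells when cluster 4 was added. The myeloid-like share, AND minus F5, ran from -0.185 to 1.99 percentage points with 1 mouse left out. By library size CD5 was 0.037 in all, 0.15 in SP-like and 0.091 in DP-like cells, and TCR β 0.53 in myeloid-like cells. In all cells CD4 was -0.081 within the antibody limits and -0.071 without doublets, where TCR β in SP-like cells was -0.11. With 1 mouse left out, all-cell CD4 and TCR β ran from -0.044 to 0.79 and -0.057 to 1.16. SP-like CD5, CD69 and TCR β ran from -1.07 to 0.62, -0.10 to 1.76 and -0.42 to 1.21. DP-like CD24, CD4, CD43, CD48 and CD5 ran from -1.99 to 0.11, -1.20 to 0.25, -1.49 to 0.32, -1.69 to 0.012 and -0.94 to 0.54, and CD8a, CD8b and TCR β from -1.31 to 0.044, -0.89 to 0.20 and -1.27 to 0.074. Cycling-like TCR β ran from -0.36 to 1.16, and myeloid-like CD4 and TCR β from -0.47 to 0.87 and -0.71 to 0.50. Of the named RNA results past the test, 168 of 179 alternatives in all cells, 118 of 120 in SP-like, 76 of 110 in DP-like, 110 of 110 in cycling-like and 61 of 86 in myeloid-like cells kept direction and call, and none reversed.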
